A study of Mus musculus with 11 samples.

Results

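Hand1, Hand2, Phox2a, Gata2, Gata3, Isl1, Tbx2 and Tfap2b are 8 transcription factors of the noradrenergic (adrenergic) state of neuroblastoma, and their mRNA was followed in adrenal tumors of mice given cisplatin or vehicle. They were chosen by name, with earlier results of these data known, as 8 of the 27998 genes listed. All 8 passed the filter on low counts for cisplatin against vehicle, Hand1 only through the cisplatin mice and Gata2 mainly through them. Tumors came from Dbh-iCre;LSL-MYCN mice on the 129X1/SvJ background, in which Cre under the Dbh promoter switches on human MYCN in Dbh-expressing cells. Every mouse of both groups carried these alleles, and each library came from 1 mouse. Cisplatin was given to 6 mice at 2 mg/kg, with harvest 24 h later, and 5 mice formed the vehicle group, of which 2 (vehicle 1 and 2) are labelled DMSO and 3 (vehicle 3 to 5) Vehicle. The ages of single mice were not given in the labels.

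Sympathetic neurons and chromaffin cells arise from neural crest, and a small set of transcription factors holds their identity by binding the enhancers of one another and of the noradrenaline pathway genes. In adrenergic neuroblastoma cells such factors form a core regulatory circuitry, with HAND and GATA factors, homeodomain proteins, T-box and AP-2 factors among its members. Dbh and Th, enzymes of noradrenaline synthesis, are classical outputs of this program.

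Droplet single-cell RNA-seq counted transcripts by unique molecular identifiers (UMIs), and 73170 of 93344 barcodes were kept as cells. Levels were computed over all kept cells and over adrenergic-marker cells, defined as cells with at least 4 UMIs of Dbh, Th, Stmn2 and Chga together, and are given as UMIs per 1000000 UMIs (CPM) of that mouse's cells. Adrenergic-marker cells numbered 55924, from 2531 to 6047 per vehicle mouse and from 114 to 13043 per cisplatin mouse. Their total depth was 62583336 to 203731701 UMIs in the vehicle mice, and 2334892 to 120742468 UMIs in the cisplatin mice. Cisplatin 2 was the smallest library, with 8.02% of its kept cells passing the marker threshold, so its values rest on 114 cells. Pairs of libraries shared 0 to 46 cell barcodes, at most 0.915% of the smaller library.

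The labelled tissue was checked against Dbh and Th before any comparison, and the vehicle tumors differed among themselves. In vehicle 1, 3, 4 and 5, only 2, 6, 17 and 1 cells of all kept cells had a UMI of either gene. The marker threshold was met there almost wholly through Stmn2, a neuronal tubulin regulator, which made up 97.2%, 97.4%, 97.6% and 97.7% of the marker UMIs. Stmn2 was also most of them in vehicle 2 (90.5%) and in the cisplatin mice (79.2% to 89.3%), so the threshold reads mainly Stmn2 in every mouse. Vehicle 2 differed from the other controls, with 153.8 CPM of Dbh and 75.6 CPM of Th in adrenergic-marker cells. In the cisplatin mice Dbh lay between 21.8 and 288 CPM and Th between 10.9 and 264 CPM. Members' fold changes without vehicle 2 are therefore given below where they reach the threshold or move by over 1.5 times, and the part of this difference between tumors in the results was not tested. The labels call all 11 samples neuroblastoma of this model, but these markers do not settle whether vehicle 1, 3, 4 and 5 are tumors of the same kind as the others. Every comparison of cisplatin with vehicle therefore also sets tumors with Dbh and Th against a group in which 4 of 5 have almost none, and in those 4 kind of tumor and treatment cannot be told apart. Fits without vehicle 2 keep only those 4 controls, so their fold changes and calls cannot separate treatment from kind of tumor.

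The sequences that precede the RefSeq starts of Hand2, Gata2 and Gata3 are shown because these 3 genes, which lie on different chromosomes, were higher in every cisplatin mouse than in every vehicle mouse by CPM in adrenergic-marker cells. Each is the 250 bases before the start in GRCm38.p6, written 5′ to 3′ on the gene's own strand, with GATAA or its reverse complement TTATC, the core bound by GATA factors, in capitals. Gata2 has a further start in the table, and the Gata3 start lies inside the GENCODE gene.
Hand2 (chr8:57320733-57320982, plus strand): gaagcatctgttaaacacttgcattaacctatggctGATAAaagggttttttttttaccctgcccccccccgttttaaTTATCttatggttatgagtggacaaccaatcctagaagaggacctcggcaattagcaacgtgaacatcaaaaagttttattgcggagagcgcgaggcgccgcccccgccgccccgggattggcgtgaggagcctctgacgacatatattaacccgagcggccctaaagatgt
Gata2 (chr6:88193641-88193890, plus strand): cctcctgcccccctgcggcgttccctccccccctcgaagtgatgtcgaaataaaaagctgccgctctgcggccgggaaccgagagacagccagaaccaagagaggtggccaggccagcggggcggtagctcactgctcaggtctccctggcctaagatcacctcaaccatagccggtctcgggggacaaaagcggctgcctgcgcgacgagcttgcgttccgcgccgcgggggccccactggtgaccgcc
Gata3 (chr2:9878601-9878850, minus strand): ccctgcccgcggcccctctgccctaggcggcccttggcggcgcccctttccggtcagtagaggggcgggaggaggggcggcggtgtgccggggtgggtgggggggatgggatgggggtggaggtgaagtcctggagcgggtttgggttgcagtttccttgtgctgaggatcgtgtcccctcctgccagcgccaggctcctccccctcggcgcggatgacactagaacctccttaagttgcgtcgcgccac
The Hand2 window held 2 GATA motifs, beginning 214 and 172 bases before the start, and the Gata2 and Gata3 windows held none. The other Gata2 start had none either. Among the members whose groups overlapped, the windows of Phox2a and Isl1 held 1 match each, 202 and 114 bases before the start, and that of Tfap2b none. GATAA or TTATC occurred in 22.5% of the 32536 promoter windows of this length, so 1 window with a match among these is a description of letters only. The E-box, CANNTG, which basic helix-loop-helix proteins such as the HAND factors bind, occurred in 66.2% of all windows, with 2 matches in the Hand2 window and 0 in both Gata2 windows and the Gata3 window.

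Hand1 and Hand2 encode closely related basic helix-loop-helix proteins, and Hand2 is needed for the noradrenergic development of sympathetic neurons. Hand1 (ENSMUSG00000037335, chromosome 11, 57828705 to 57832818, minus strand, GRCm38) was nearly silent in every vehicle tumor. By CPM it was higher in every cisplatin tumor, though cisplatin 5 held only a trace. Adrenergic-marker cells of vehicle 1 to 5 held 0, 6, 0, 1 and 1 Hand1 UMIs, or 0, 0.0379, 0, 0.00904 and 0.0107 CPM. Those of cisplatin 1 to 6 held 43.5, 7.71, 37.7, 165.9, 0.202 and 65.0 CPM. The groups did not overlap, but the cisplatin tumors themselves spanned a wide range, and cisplatin 5, with 22 UMIs, lay closer to the controls than to the other treated mice. Vehicle 2, the control with Dbh and Th, was below every treated mouse in Hand1. The value of cisplatin 2 rests on 18 UMIs.

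By edgeR's quasi-likelihood test over all genes, the Hand1 log2 fold change was 11.68 (SE 1.71, Benjamini-Hochberg adjusted p = 0.00922) in adrenergic-marker cells and 11.53 (SE 1.97, adjusted p = 0.0262) in all cells. Hand1 passed the filter on low counts through the cisplatin mice alone, so it was tested only because of the group where it was high. With so few UMIs in the controls the fitted fold depends on the prior count, and the group means, 53.3 and 0.0115 CPM, are the plainer statement. Without vehicle 2 the log2 fold changes were 12.92 and 12.90. In adrenergic-marker cells the call held without each mouse in turn, at adjusted p-values of 0.00187 to 0.0311. In all cells it was lost without vehicle 1, 3, 4 or 5 or cisplatin 1, 3 or 4, at 0.0554 to 0.0864. The software named in the matrix headers also moved with treatment: vehicle 1 and 3 were made with an earlier version than the other 9 mice. Among mice of the later version, 6 against 3 with vehicle 2 among the controls, edgeR's adjusted p for Hand1 was 0.0746 in adrenergic-marker cells and 0.218 in all cells, with log2 fold changes of 10.98 and 10.88.

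Hand2 (ENSMUSG00000038193, chromosome 8, 57320983 to 57324633, plus strand), unlike Hand1, was well expressed in all 11 tumors. Levels in adrenergic-marker cells of vehicle 1 to 5 were 126, 272, 161, 84.8 and 99.0 CPM. In cisplatin 1 to 6 they were 279, 436, 484, 363, 286 and 479 CPM. Cisplatin 1 and 5 stood only just above vehicle 2, and after TMM scaling, which corrects CPM for a few dominant genes, the groups overlapped. Hand2 rose by edgeR in these cells, with a log2 fold change of 1.07 (SE 0.267, adjusted p = 0.0225). The call was lost without vehicle 1, 4 or 5, at adjusted p-values of 0.0539 to 0.0623, and among mice of the later software version (1.05, adjusted p = 0.124). Fibroblast markers (Col1a1, Col1a2, Col3a1 and Dcn, summed) in the adrenergic-marker cells were at 161.7 and 112 CPM in cisplatin 1 and 4, against 0.462 to 8.50 CPM in the other cisplatin mice and 0.511 to 15.8 CPM in the vehicle mice. Fibroblast-marker cells were those below the adrenergic threshold with at least 4 UMIs of these 4 genes. They had 66.9, 137 and 306 CPM of Hand2 in cisplatin 1, 3 and 4, the mice with at least 50 such cells. Each value was below the adrenergic-marker cells of the same mouse. Every member was highest there in cisplatin 4, with 199 CPM of Gata3 and 236 CPM of Isl1. In cisplatin 1 and 3 these cells held 1.82 and 3.55 CPM of Gata3 and 21.1 and 21.3 CPM of Isl1. The source of the members' UMIs in fibroblast-marker cells of cisplatin 4 was not tested. Among adrenergic-marker cells with no UMI of fibroblast, immune, endothelial or epithelial markers, Hand2 rose by 1.14 (SE 0.263, edgeR adjusted p = 0.0177). Such cells were 931 of 5227 in vehicle 1 and 914 of 3909 in cisplatin 1, but 3215 of 4712 in cisplatin 6. A rule of no UMI keeps shallow cells more readily, and its part in this result was not tested.

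Over all cells, where fewer cells of a type and less RNA per cell cannot be told apart, Hand2 was not called, with a log2 fold change of 0.80 (SE 0.476, edgeR adjusted p = 0.262). Vehicle levels were 84.9 to 262 CPM, and cisplatin levels were 239, 34.9, 450, 364, 283 and 473 CPM for cisplatin 1 to 6. Cisplatin 2, whose kept cells were mostly outside the marker threshold, was the lowest of all mice, and without it Hand2 was called in all cells as well (1.03, adjusted p = 0.0404). The antisense transcript Hand2os1 overlaps Hand2 on the opposite strand and was not listed in the matrices used here.

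**Figure D1:**
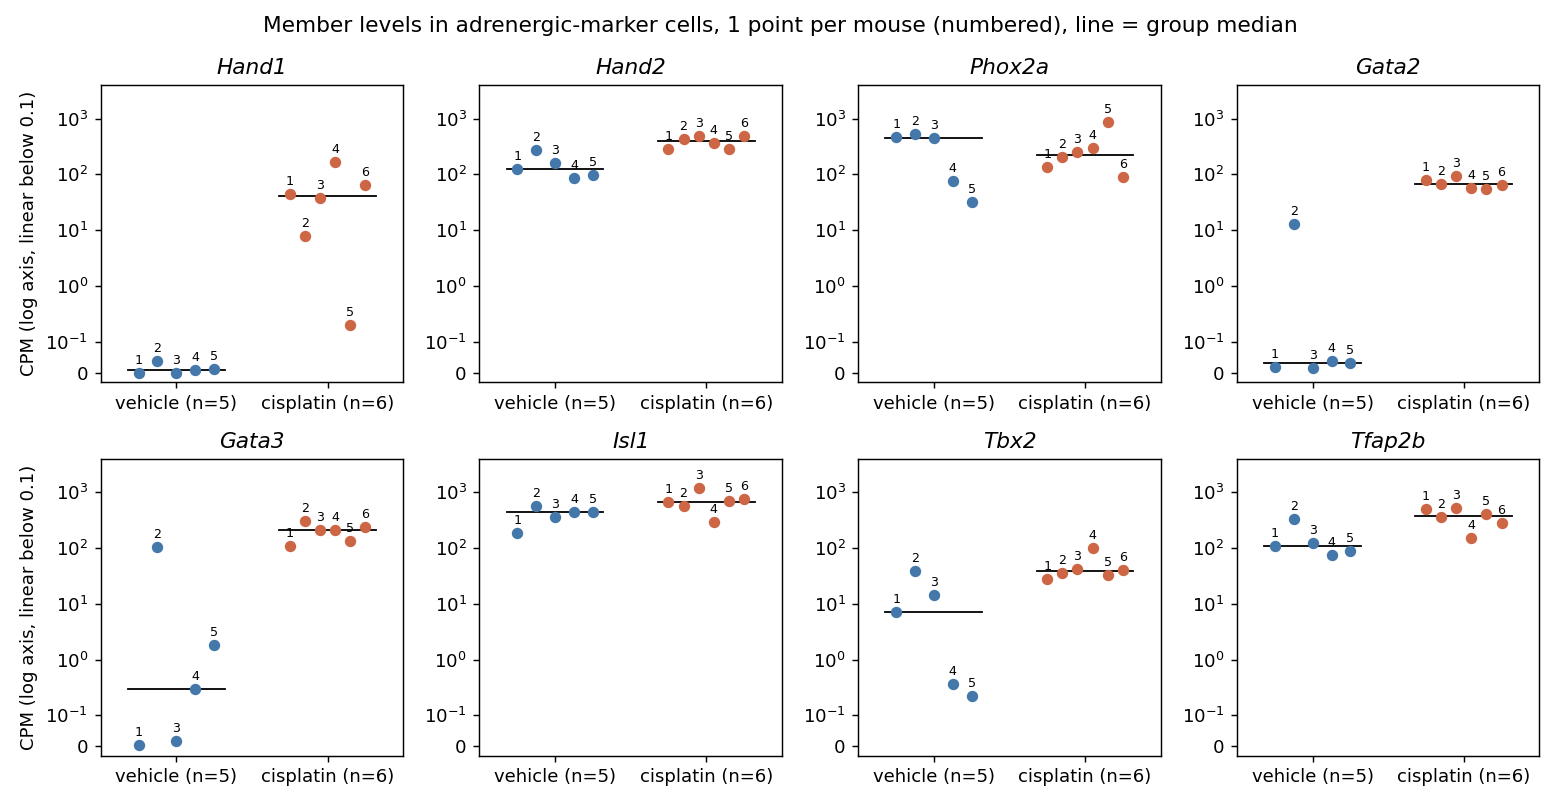
Level of each of the 8 genes in adrenergic-marker cells (CPM, log axis that is linear below 0.1), with 1 numbered point per mouse, vehicle in blue (n = 5), cisplatin in orange (n = 6) and a line at the group median. Hand1 parts the groups with cisplatin 5 lowest among treated mice, and vehicle 2 stands above the other controls for Gata2 and Gata3, at 13.0 and 105.4 CPM.

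Across the 8 members, 1 was called in all cells, Hand1, where 7.27% of the 15975 genes tested were called, 2.56% upward and 4.71% downward. In adrenergic-marker cells 2 were called, Hand1 and Hand2, both upward, where 17.9% of 15164 genes were called (8.04% upward, 9.82% downward). The members were chosen with earlier results of these data known, so the counts and shares in this paragraph are a description, not a test. By plain CPM, 4 of 8 members (Hand1, Hand2, Gata2 and Gata3) had every cisplatin mouse above every vehicle mouse in adrenergic-marker cells, against 5.82% of genes tested. After TMM scaling these were 2 of 8, Hand1 and Gata2, against 3.02% of genes. The same count downward was 0 of 8 on both scales, and the background downward was 1.31% by plain CPM and 3.52% after TMM. In all cells, Hand1 alone parted the groups on both scales, where 2.94% of genes lay above and 1.13% below by plain CPM, and 1.95% above and 2.17% below after TMM.

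Gata2 and Gata3 encode zinc-finger factors that act downstream of the first noradrenergic regulators and are needed for sympathetic and chromaffin cells to make catecholamines. Both were close to absent in the 4 vehicle tumors without Dbh and Th. Gata2 (ENSMUSG00000015053, chromosome 6, 88193891 to 88207032, plus strand) had 0.0196, 13.0, 0.0160, 0.0362 and 0.0321 CPM in adrenergic-marker cells of vehicle 1 to 5. In cisplatin 1 to 6 it had 79.1, 68.1, 91.4, 57.3, 53.8 and 63.6 CPM. The treated mice lay within a narrow range, and all were above vehicle 2, the highest control. Endothelial-marker cells (below the adrenergic threshold, with at least 4 UMIs of Pecam1, Cdh5, Kdr and Egfl7) had 31.1 and 77.2 CPM of Gata2 in cisplatin 1 and 3. Fibroblast-marker cells of cisplatin 4 had 61.2 CPM, above its adrenergic-marker cells, against 2.91 and 1.18 CPM in cisplatin 1 and 3. Adrenergic-marker cells of cisplatin 2 held 157 CPM of endothelial markers, against 8.84 to 53.5 CPM in the other mice. The part of other cells in these levels was not tested. The log2 fold change was 4.51 (SE 1.58) and missed the threshold (edgeR adjusted p = 0.0654). Without vehicle 2 it was 10.94 (SE 0.309, adjusted p = 1.57e-08), against only the 4 controls with almost no Dbh or Th. With vehicle 2 kept, Gata2 was also called by DESeq2 and with blocking on the replicate number, where cisplatin 6 has no vehicle mouse of its number. Gata2 was called as well among cells with no UMI of other cell types' markers, which were an unequal share of the adrenergic-marker cells from mouse to mouse. The call therefore depends on this control and on the settings.

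Gata3 (ENSMUSG00000015619, chromosome 2, 9857078 to 9890034, minus strand) was likewise low in vehicle 1, 3, 4 and 5 and high in vehicle 2 and the cisplatin mice. Its levels were 0.00491, 105.4, 0.0160, 0.298 and 1.85 CPM in vehicle 1 to 5. Those of cisplatin 1 to 6 were 107.0, 305, 212, 213, 135 and 238 CPM. Vehicle 2 was at the level of cisplatin 1, so that the groups were apart by plain CPM and overlapped after TMM scaling. The log2 fold change was 3.02 (SE 1.66, edgeR adjusted p = 0.205). Without vehicle 2, against only the controls with almost no Dbh or Th, it was 8.15 (SE 1.32, adjusted p = 0.00186). The genes Gm13256, 4930412O13Rik and 9230102O04Rik overlap the Gata3 gene model, the last of them on the same strand, where counting can leave reads of shared sequence uncounted.

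In all cells neither GATA gene was called, with log2 fold changes of 4.31 (SE 1.58, edgeR adjusted p = 0.0958) for Gata2 and 2.76 (SE 1.68, adjusted p = 0.270) for Gata3. Without vehicle 2 both were called, at 9.65 (adjusted p = 0.00059) and 7.83 (adjusted p = 0.00667). At the level of cells, the 4 low vehicle tumors held 3, 1, 4 and 3 adrenergic-marker cells with a Gata2 UMI. Cells with a Gata3 UMI there were 1, 1, 33 and 109, out of 5227, 2531, 5563 and 3225, and none had both genes. Vehicle 2 had 1017 cells with Gata2, 4739 with Gata3 and 926 with both, of 6047.

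**Figure D2:**
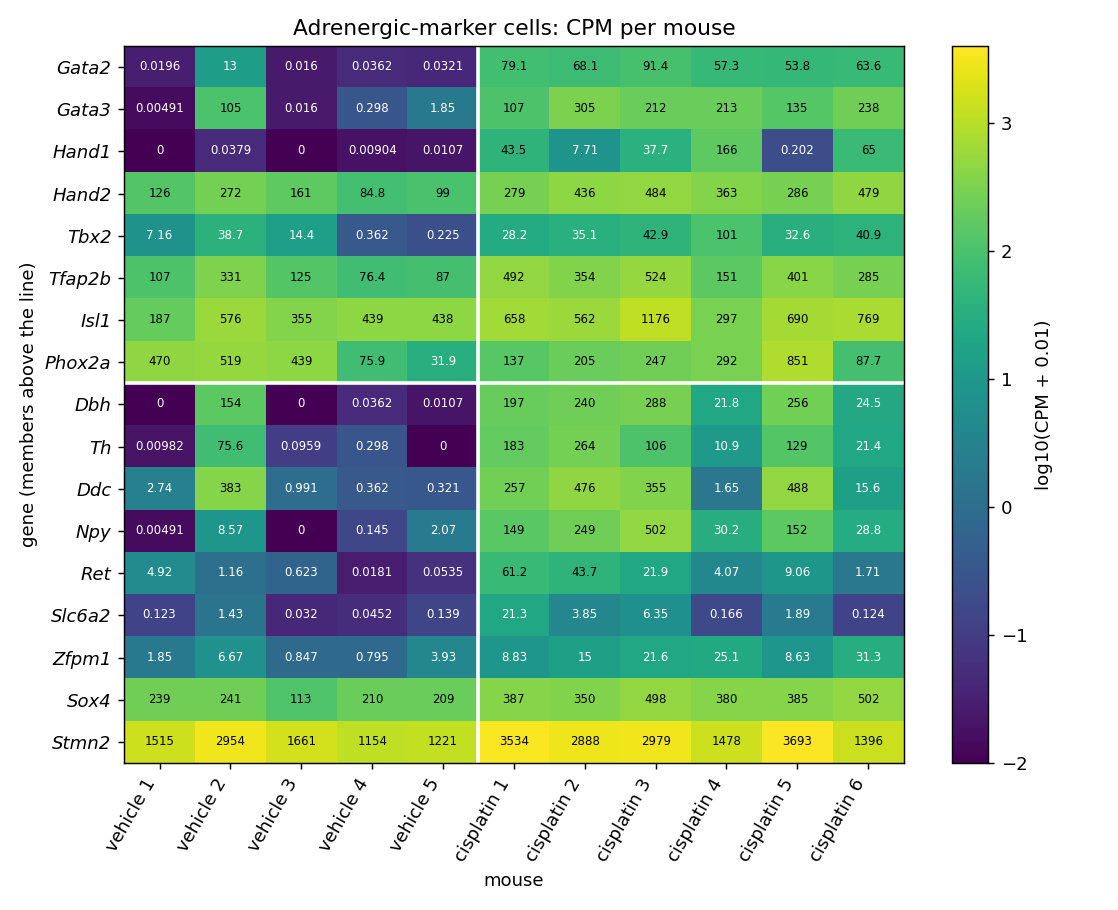
Levels in adrenergic-marker cells of the 8 members (above the white line) and of noradrenergic, partner and marker genes (below), in each of the 11 mice, as CPM printed in each cell and colored by log10(CPM + 0.01). Vehicle 1, 3, 4 and 5 were low in Gata2, Gata3, Dbh, Th and Ddc together, and vehicle 2 had at least 13.0 CPM of each of these 5 genes but 0.0379 CPM of Hand1.

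Within the treated group the order of the tumors by GATA level was not their order by enzyme level. Cisplatin 4 and 6 had the lowest Dbh of the treated mice, 21.8 and 24.5 CPM, and Ddc, the decarboxylase of the same pathway, at 1.65 and 15.6 CPM. Their Gata3 levels, 213 and 238 CPM, were nevertheless above those of cisplatin 1 and 5, whose Ddc levels were 257 and 488 CPM. Gata2 in cisplatin 4 and 6 (57.3 and 63.6 CPM) likewise lay within the range of the other treated mice. In other tumors both were high: cisplatin 3 had the highest Gata2 (91.4 CPM) and Dbh (288 CPM) of the treated mice. Cisplatin 2 had the highest Gata3 (305 CPM), with Ddc at 476 CPM. Fibroblast-marker cells of cisplatin 4 also held 199 CPM of Gata3, a limit on its use here.

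**Figure D3:**
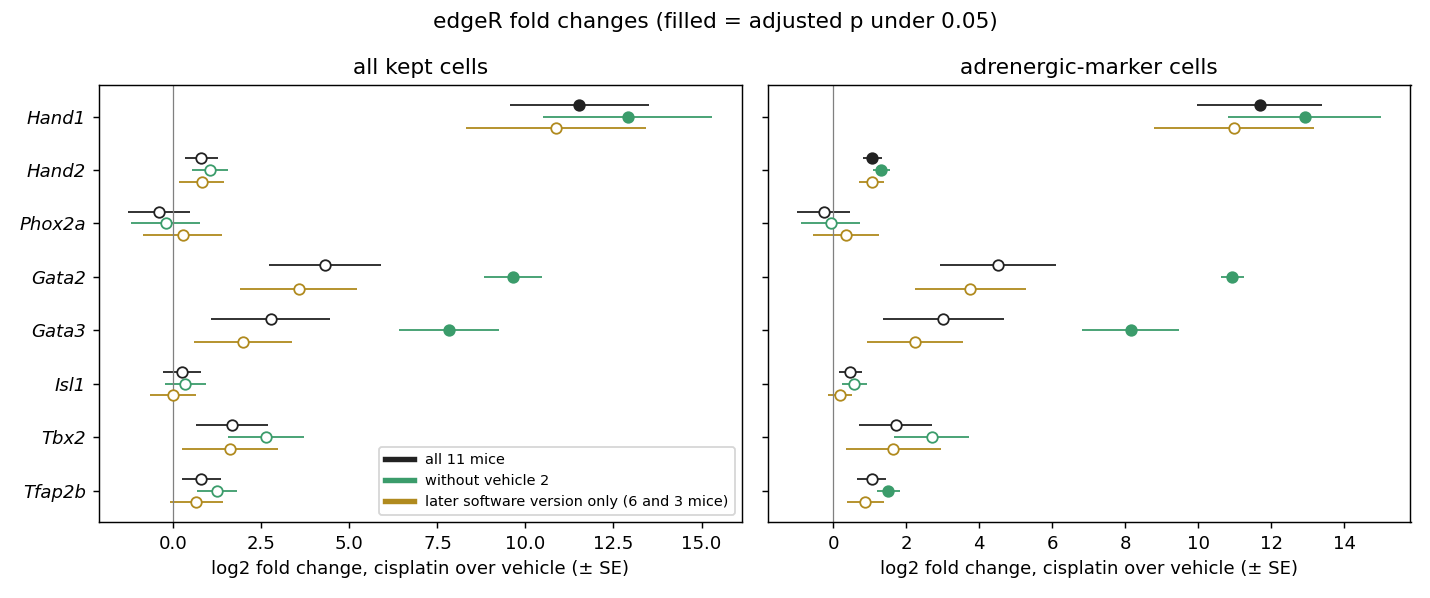
edgeR log2 fold change of each member, cisplatin over vehicle, with bars of 1 SE, in all kept cells (left) and adrenergic-marker cells (right), for all 11 mice, without vehicle 2, and for mice of the later software version, with filled points where the adjusted p was under 0.05. Gata2 moves from 4.51 to 10.94 and Gata3 from 3.02 to 8.15 in adrenergic-marker cells when vehicle 2 is left out, while Hand2 moves from 1.07 to 1.32.

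Phox2a, a paired-like homeodomain factor that activates Dbh and Th, was the only member with a negative fold change. Its locus (ENSMUSG00000007946) is on chromosome 7, 101818313 to 101822726, plus strand, and Inppl1 overlaps it on the other strand. Adrenergic-marker cells of vehicle 1 to 5 had 470, 519, 439, 75.9 and 31.9 CPM. Those of cisplatin 1 to 6 had 137, 205, 247, 292, 851 and 87.7 CPM. The control tumors split into a high and a low set inside 1 treatment group, and vehicle 1 and 3 had high Phox2a with almost no Dbh or Th. The log2 fold change was -0.26 (SE 0.733, edgeR adjusted p = 0.816) in adrenergic-marker cells and -0.40 (SE 0.886, adjusted p = 0.778) in all cells. Without cisplatin 5, the highest mouse, these were -0.99 (adjusted p = 0.292) and -1.31 (adjusted p = 0.270), and without each mouse in turn they stayed negative and uncalled, up to -0.064 and -0.15. The sign turned among mice of the later software version, to 0.36 and 0.26, so no direction can be given.

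Isl1, a LIM-homeodomain factor of sympathetic, sensory and motor neurons, was expressed throughout. This gene (ENSMUSG00000042258) is on chromosome 13, 116298281 to 116309689, minus strand. Levels were 187, 576, 355, 439 and 438 CPM in vehicle 1 to 5. They were 658, 562, 1176, 297, 690 and 769 CPM in cisplatin 1 to 6, and the groups overlapped. The log2 fold change was 0.47 (SE 0.315, edgeR adjusted p = 0.291) in adrenergic-marker cells and 0.25 (SE 0.531, adjusted p = 0.774) in all cells.

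Tbx2, a T-box factor known mainly as a transcriptional repressor, varied widely among the controls. Located on chromosome 11, 85832551 to 85841948, plus strand (ENSMUSG00000000093), it had 7.16, 38.7, 14.4, 0.362 and 0.225 CPM in vehicle 1 to 5. In cisplatin 1 to 6 it had 28.2, 35.1, 42.9, 101.1, 32.6 and 40.9 CPM. Vehicle 4 and 5, the tumors with the least Phox2a of the controls, were also lowest in Tbx2. The log2 fold change was 1.71 (SE 0.993, edgeR adjusted p = 0.228) in adrenergic-marker cells and 1.65 (SE 1.02, adjusted p = 0.277) in all cells. Without vehicle 2, the highest control, these became 2.70 (adjusted p = 0.0661) and 2.62 (adjusted p = 0.108). In cisplatin 2, 82 of the 456 Tbx2 UMIs (18.0%) came from adrenergic-marker cells, so its all-cell level was mostly that of other cells, against 91.3% to 99.2% from adrenergic-marker cells in the other mice.

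Tfap2b encodes an AP-2 factor of neural crest and sympathetic neurons. It lies on chromosome 1, 19208914 to 19238576, plus strand (ENSMUSG00000025927), and had 107, 331, 125, 76.4 and 87.0 CPM in vehicle 1 to 5. The cisplatin mice had 492, 354, 524, 151, 401 and 285 CPM. Vehicle 2 again lay among the treated tumors, above cisplatin 4 and 6. The log2 fold change was 1.06 (SE 0.393, edgeR adjusted p = 0.0774). It reached the threshold without vehicle 2, against only the controls with almost no Dbh or Th (1.51, adjusted p = 0.00643). In all cells it was 0.80 (SE 0.560, adjusted p = 0.338), and 1.24 (adjusted p = 0.140) without vehicle 2.

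To set Hand1 beside Hand2 in single cells, each cell was thinned to 3000 UMIs, which left 31418 adrenergic-marker cells from cisplatin mice (1913 shallower cells left out) and 21948 from vehicle mice (645 left out). No thinned vehicle cell had a Hand1 UMI, from 0 of 5931 cells in vehicle 2 to 0 of 2407 in vehicle 3, which allows shares of up to 0.0506% and 0.125% of cells with a UMI at this depth. That is a limit on detection, not on cells that express the gene. In cisplatin 1 to 6 the shares were 10.9%, 1.08%, 10.2%, 37.5%, 0.0578% and 16.9%. The mean difference was 12.8 percentage points (exact two-sided permutation test over mice, p = 0.0173, where 0.00216 is the smallest possible). In 5 of 6 treated mice the share was above the limits of all vehicle mice, although that of cisplatin 2 rests on 1 of 93 cells (95% Wilson interval 0.190% to 5.84%). The share of cisplatin 5, 3 of 5187 cells (95% Wilson interval 0.0197% to 0.170%), was not distinguishable from the vehicle mice at this depth. Without any 1 vehicle mouse the exact permutation p was 0.0667. Before thinning, the shares ranged from 0.368% to 64.4% in the cisplatin mice and from 0 to 0.0992% in the vehicle mice.

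Immune-marker cells, with at least 4 UMIs of Ptprc, Tyrobp, Laptm5 and Coro1a and under 4 of the adrenergic markers, were used as the background. They were taken to lack Hand1 and Hand2, which was not tested. Adrenergic-marker cells held 6262 of 6870 Coro1a UMIs in vehicle 1 and 2780 of 3226 in cisplatin 4. In cisplatin 4 they also held 9738 of 11519 Tyrobp UMIs, so these UMIs were not confined to immune-marker cells. The thinned Hand1 share of immune-marker cells was 0.828% in cisplatin 1 and 0.521% in cisplatin 3. It was 19.2% in cisplatin 4 (15 of 78 cells, 95% Wilson interval 12.02% to 29.3%), and 0 in the other mice. Median depth before thinning was 7698.5, 6166.5 and 4902 UMIs in these immune-marker cells, against 7207 UMIs in the adrenergic-marker cells of cisplatin 4. The share in cisplatin 4 was thus high in both kinds of cell, and its Hand1 level was 56.4 CPM in immune-marker cells against 165.9 CPM in adrenergic-marker cells. Hbb-bs, a haemoglobin gene, was also at 24390 CPM in adrenergic-marker cells of cisplatin 4, against 0.428 to 1971 CPM in the other 10 mice. Without cisplatin 4 the mean difference in Hand1 share was 7.83 percentage points, and the source of Hand1 UMIs in immune-marker cells was not tested.

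**Figure D4:**
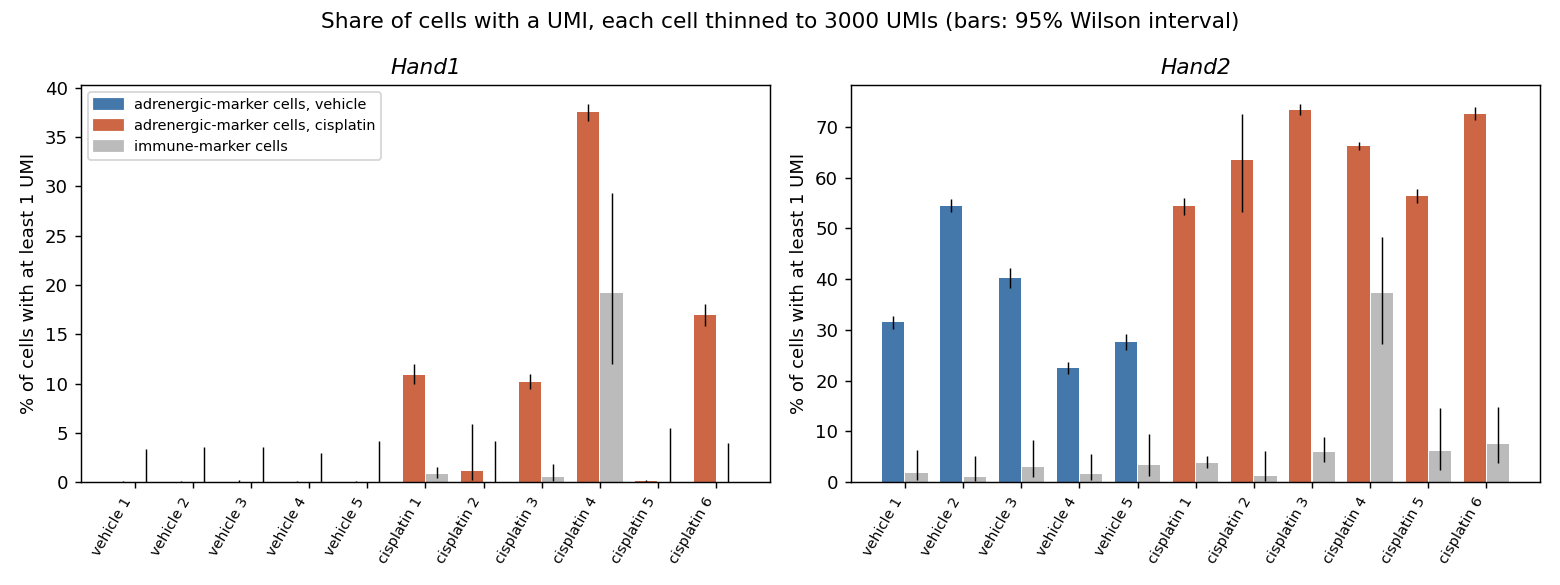
Percent of cells with at least 1 UMI of Hand1 (left) and Hand2 (right) in each mouse after thinning to 3000 UMIs, for adrenergic-marker cells (blue for vehicle, orange for cisplatin) and immune-marker cells (grey), with 95% Wilson intervals that cover counting error only. Hand1 is at 0 in all vehicle mice and reaches 37.5% in cisplatin 4, where immune-marker cells are at 19.2%.

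Thinned Hand2 shares in adrenergic-marker cells were 31.5%, 54.5%, 40.3%, 22.4% and 27.6% in vehicle 1 to 5, and 54.3%, 63.4%, 73.4%, 66.3%, 56.4% and 72.6% in cisplatin 1 to 6. Immune-marker cells had 0.952% to 3.37% in the vehicle mice and 1.14% to 37.2% in the cisplatin mice, the highest again in cisplatin 4. Taken over summed UMIs, Hand1 made up 0, 0.0139%, 0, 0.0107% and 0.0108% of the Hand1 and Hand2 UMIs in vehicle 1 to 5. In cisplatin 1 to 6 it made up 13.5%, 1.74%, 7.22%, 31.4%, 0.0707% and 11.9%. This percentage does not depend on library scaling, and its mean difference was 10.96 percentage points (exact two-sided permutation test, p = 0.0173). Without cisplatin 4, the highest mouse and the one with Hand1 in immune-marker cells at 19.2%, it was 6.88 percentage points (exact permutation p = 0.00794). Among mice of the later software version, 6 against 3, the exact permutation p was 0.107 for the share and 0.119 for the percentage.

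Hand2 detection differed by 0.344 to 3.18 percentage points between cells with and without Hand1. At least 50 cells of both kinds were left in 4 cisplatin mice. Hand2 was detected in 57.2% of cells with Hand1 and 54.0% of cells without in cisplatin 1, and in 73.7% and 73.4% in cisplatin 3. The same shares were 67.9% and 65.3% in cisplatin 4, and 75.0% and 72.1% in cisplatin 6. The mean difference was 2.27 percentage points, with Hand2 higher beside Hand1 in 4 of 4 mice (exact sign-flip permutation test, p = 0.125, the smallest that 4 mice allow).

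UMIs of different members were detected together in single cells. The mean number of the 8 members with a UMI per thinned adrenergic-marker cell was 1.67, 3.06, 1.96, 1.25 and 1.30 of the 8 members in vehicle 1 to 5, and 2.92, 3.13, 3.67, 3.39, 3.42 and 3.17 in cisplatin 1 to 6. Vehicle 2 alone among the controls reached the range of the treated mice. The same mean in immune-marker cells was 1.79 in cisplatin 4 and 0.0630 to 0.303 in the other 10 mice, and the source of these UMIs in cisplatin 4, whose pair ratios are included below, was not tested. Within a mouse, the share of cells with both members of a pair, divided by the product of the single shares, lay between 0.592 and 1.63 over all pairs and mice with at least 20 such cells expected. The highest ratio was that of Hand1 and Gata2 in cisplatin 6, with 200 cells against 123 expected, and this pair was above 1 in 4 of 4 mice (median 1.11). The lowest was that of Tbx2 and Tfap2b in vehicle 1, with 16 cells against 27.0 expected. Phox2a and Gata2 were at 1.005 to 1.496, above 1 in 6 of 6 mice, and Hand1 and Tbx2 at 0.876 to 1.36 in 4 mice. For Hand1 and Hand2 it was 1.00 to 1.05 in 4 mice, and for Gata2 and Gata3 0.972 to 1.47 in 6 mice, above 1 in 4 of them. For the pairs of Hand2 with Isl1, Phox2a and Tfap2b, counted in all 11 mice, the ratio was above 1 in every mouse, with medians of 1.04, 1.04 and 1.03. Pairs of other genes were not compared, so ratios slightly above 1 are not shown to be particular to the members.

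The members were also compared between cycling cells, with at least 2 UMIs of Mki67 and Top2a, and cells with 0, within the adrenergic-marker cells of 10 mice, cisplatin 2 being left out for too few cells. Gata2 and Phox2a were lower in cycling cells, with Gata2 falling by 1.23 on the log2 scale (SE 0.282, edgeR adjusted p = 0.00298) and Phox2a by 0.70 (SE 0.174, adjusted p = 0.00485). Hand2 fell by 0.22 (SE 0.0659, adjusted p = 0.0151) and Gata3 by 0.24 (SE 0.0902, adjusted p = 0.0439). In this comparison 54.8% of 13432 genes were called, 27.0% higher and 27.9% lower in cycling cells, and all 4 calls among the 7 members tested were in the lower direction. Median depth differed between the kinds of cell as well, for example 38076 UMIs in cycling and 15453 in non-cycling cells of vehicle 1, and its part in the result was not tested.

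In vehicle 2 Gata2 was at 56.6 CPM in non-cycling cells and 7.24 CPM in cycling cells. The cisplatin mice went from 153, 130, 68.8, 98.0 and 75.0 CPM in non-cycling cells to 45.8, 55.5, 54.7, 37.4 and 60.8 CPM in cycling cells of cisplatin 1, 3, 4, 5 and 6. All 6 mice with more than traces of Gata2 were lower in cycling cells. Phox2a was lower in 9 of 10 mice, cisplatin 4 being the exception, and Hand2 in 9 of 10, cisplatin 6 being the exception. Isl1 (0.01, adjusted p = 0.937), Tbx2 (0.16, adjusted p = 0.228) and Tfap2b (-0.07, adjusted p = 0.338) were not called by edgeR, and Hand1 was too low in too many mice to be tested. The Hand2 call was lost without vehicle 3, vehicle 4 or cisplatin 1 (edgeR adjusted p 0.0549 to 0.0802), and the Gata3 call without vehicle 1, 2, 3 or 4 or cisplatin 1, 3 or 5 (0.0551 to 0.143). Both were lost with no gene filter, at adjusted p-values of 0.286 and 0.212.

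**Figure D5:**
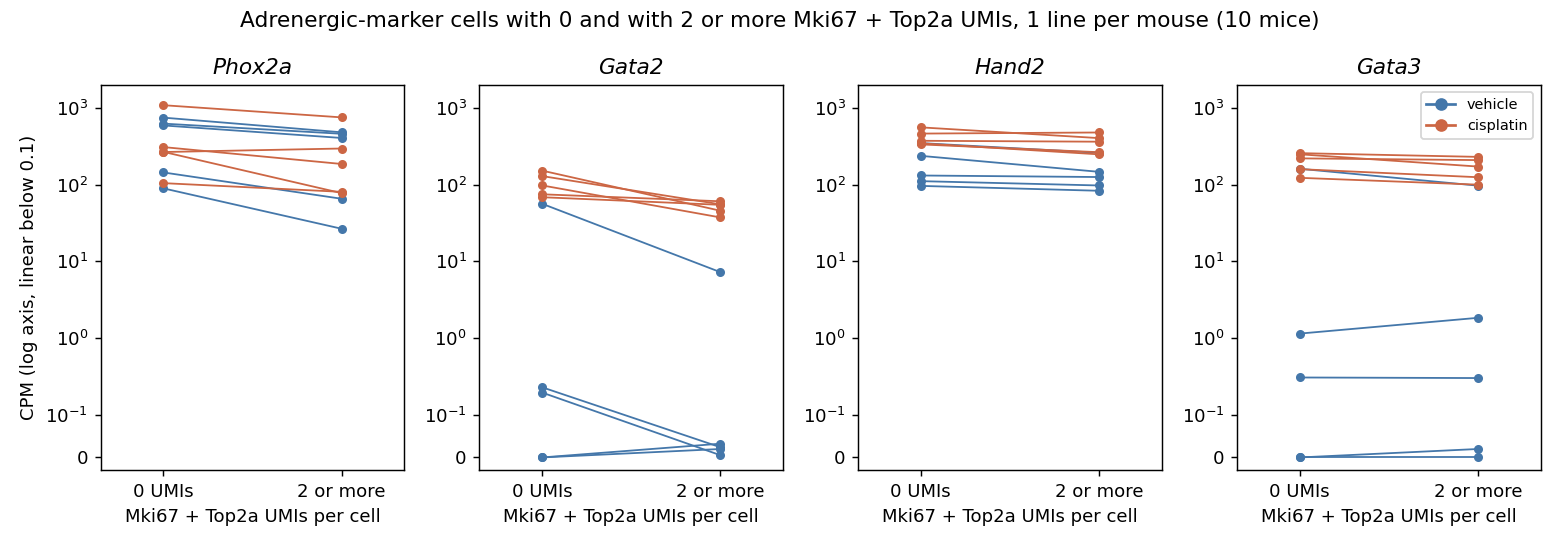
Levels (CPM, log axis that is linear below 0.1) of Phox2a, Gata2, Hand2 and Gata3 in adrenergic-marker cells with 0 and with 2 or more UMIs of Mki67 and Top2a, with 1 line per mouse, vehicle in blue and cisplatin in orange (10 mice). Gata2 in vehicle 2 drops from 56.6 to 7.24 CPM, and the low lines of vehicle 1, 3, 4 and 5 for Gata2 and of vehicle 1 and 3 for Gata3 rest on at most 4 UMIs.

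Of 23 genes for partners and relatives of the members, 18 passed the filter in adrenergic-marker cells, and 2 were called upward and 0 downward, where 8.04% of all genes tested were called upward and 9.82% downward, with a median log2 fold change of 0.39 beside 0.09 over all genes tested. Zfpm1, a cofactor that binds GATA proteins, rose by 2.43 (SE 0.587, edgeR adjusted p = 0.0207), with 1.85, 6.67, 0.847, 0.795 and 3.93 CPM in vehicle 1 to 5 and 8.63 to 31.3 CPM in the cisplatin mice. Sox4, an HMG-box factor of neural progenitors, rose by 0.74 (SE 0.187, adjusted p = 0.0235), from 113 to 241 CPM in the vehicle mice and from 350 to 502 CPM in the cisplatin mice. Tbx3, a close relative of Tbx2, was not called (2.28, SE 1.01, adjusted p = 0.123). In all cells 20 of the 23 were tested and Zfpm1 alone was called (2.23, edgeR adjusted p = 0.0458), where 2.56% of all genes tested were called upward.

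Of 23 noradrenergic and neuronal genes, all tested in adrenergic-marker cells, Npy was the only one called, upward, against 17.9% of all genes tested (8.04% upward). A positive fold change was found for 21, with a median of 1.34 beside 0.09 over all genes tested. Npy, a neuropeptide stored with noradrenaline, rose by 6.12 (SE 1.61, edgeR adjusted p = 0.0266), from 0 to 8.57 CPM in the vehicle mice to 28.8 to 502 CPM in the cisplatin mice. Ddc (1.57, SE 1.77, adjusted p = 0.535) and Ret, a receptor of sympathetic neurons (3.79, SE 1.31, adjusted p = 0.0627), were not called. The Ddc fold rests on vehicle 2, at 383 CPM, where the other controls were at 0.321 to 2.74 CPM. In all cells 0 of 23 were called by edgeR, against 7.27% of all genes tested (2.56% upward), with a median of 1.03 beside 0.15 over all genes tested, and Npy stood at 5.79 (adjusted p = 0.0561).

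The genes whose level followed Hand1 most closely over the 11 mice, by Pearson's r of log2 CPM in adrenergic-marker cells, were Lrp1 (0.99), Six3 (0.98) and Ggt5 (0.98), of 15163 genes. Those closest to Hand2 were Fam131a, Lrrc3 and Ypel4 (0.97 each). The points share the library and the treatment, and these are the top values of many, so they describe the order of the mice only. In cisplatin 5, where Hand1 was lowest of the treated mice, Lrp1 was 6.75 CPM against 19.3 to 40.9 CPM in the other treated mice and 3.07 to 6.63 CPM in the vehicle mice.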

How the data were processed

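Cells freed from the tumors with papain were run on the 10X Genomics 3′ single-cell platform, with 1 library per mouse. The authors deposited raw UMI counts per gene and barcode from Cell Ranger on mm10, without normalization, and the submitters' processing notes name version 4.0. The matrix headers name version 3.1.0 for vehicle 1 and 3 and 4.0.0 for the other 9 mice. A barcode was kept as a cell from 500 genes and 1000 UMIs upward, unless over 10% of its UMIs were mitochondrial. UMIs were summed per mouse and compared with edgeR 4.0.16 (R 4.3.3; quasi-likelihood F test, TMM, filterByExpr), with Benjamini-Hochberg adjustment over all genes tested and calls at adjusted p under 0.05. The SE given with an edgeR fold change is its absolute log2 value divided by the square root of the F statistic. For genes near absence in the controls it is no direct sampling error of the fold. Shares were compared by exact permutation of mice. CPM is per 1000000 UMIs of the cells named, so a level is relative to the other RNA of those cells. Alternatives were DESeq2 1.42.0, its size factors, leaving each mouse out, testing without the gene filter, blocking on the replicate number, a single software version or control label, every barcode, other marker thresholds and removal of the 6% of cells with the highest Scrublet score per mouse (scanpy 1.11.5), since its automatic threshold marked few cells. Doublets stayed in otherwise. The overlap of groups after TMM was added after seeing the data.

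The members and gene lists were chosen with earlier results of these data known. All 8 members are named with every mouse, and of each list at most 4 called genes in each direction, at most 2 not called, and the 3 genes most like Hand1 and Hand2. Gene positions came from GENCODE vM21 (GRCm38), and promoter windows from RefSeq (GRCm38.p6), where 6 of 8 members matched, without Hand1 and Tbx2. Scripts were tested on simulated data. Wilson intervals (95%) and limits from 3 counts cover counting error only. The mice are labelled biological replicates, and p-values measure the spread between them. Replicate numbers were checked for pairing: the correlations of same-numbered mice in adrenergic-marker cells ran from -0.04 to 0.21.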

Additional observations from a re-analysis of the deposited data

Results flagged for a closer look

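Within-group levels of the 8 members (log2 CPM with a prior count) were screened for a single mouse far from the others by Dixon's ratio. Of 32 groups, 5 were found, where chance gives about 1 in 20 for a single group. The groups are not independent, since all cells include the adrenergic-marker cells, so the count cannot be compared with that share. Vehicle 2 was far above the other controls for Gata2, at 3.61 against -2.99 for the next mouse in all cells and at 3.74 against -4.03 in adrenergic-marker cells. Cisplatin 2, with few adrenergic-marker cells, was far below the other treated mice in all cells for Hand2 (5.27 against 7.75) and for Gata2 (2.63 against 5.70). Cisplatin 4 was far above the other treated mice for Tbx2 in adrenergic-marker cells (6.61 against 5.22). The cause of each was not tested.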

How the results depend on the processing

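Without 1 mouse, 0 to 3 members were called in all cells, 1 to 5 in adrenergic-marker cells and 2 to 4 between cycling and non-cycling cells. The genes called over the whole table then ran from 0 to 2822 (1162 with all mice), from 923 to 4836 (2708) and from 6524 to 7591 (7367). The difference in Hand1 share ran from 7.83 to 15.3 points (exact permutation p 0.00794 to 0.0667), the difference in Hand1 percentage from 6.88 to 13.1 (0.00794 to 0.0429), and the difference in Hand2 detection from 1.96 to 2.91 points (p = 0.25).

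In all cells 2 members were called by DESeq2 (3738 genes called), 3 against the controls labelled Vehicle (Hand1, Gata2 and Gata3; 1283 of 16665 genes), and 0 among mice of the later software version (0 genes by edgeR, 3062 at an unadjusted p under 0.05). In adrenergic-marker cells 4 were called by DESeq2 (Hand1, Hand2, Gata2 and Tfap2b; 4332 genes), 5 against the controls labelled Vehicle (3340 of 16044 genes), and 0 among mice of the later version, where 1 gene was called. DESeq2 gave no adjusted p for Gata3 there. The controls labelled Vehicle leave out vehicle 2, so all of them are tumors with almost no Dbh or Th. With the replicate block, 0 members and 49 genes were called in all cells, and 4 members (Hand1, Hand2, Gata2 and Gata3) and 2385 genes in adrenergic-marker cells. Cisplatin 6 has no vehicle mouse of its number, so with the block it adds nothing to the difference between treatments. Only some same-numbered pairs correlated above 0.1. Differently numbered pairs were not compared, so this check does not settle whether the numbers pair the mice. With no gene filter, 2 members (Phox2a and Gata2) were called lower in cycling cells, where 7109 of 22660 genes were called, 2501 of them lower. The groups of 4 members were apart in adrenergic-marker cells by plain CPM and those of 2 after TMM.

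Against the later software version, and against the controls labelled Vehicle, the Hand1 share differed by 12.8 points (exact permutation p = 0.107 for both) and the Hand1 percentage by 10.96 (p = 0.119 for both). Phox2a turned positive in all cells (0.26 in the later version, 0.24 against controls labelled Vehicle) and in adrenergic-marker cells (0.36 and 0.35), and Isl1 negative in all cells (-0.11 with the block, -0.013 in the later version). Between cycling and non-cycling cells Isl1 turned negative with DESeq2 and with its size factors (-0.0297 and -0.0301) and with 4 UMIs as the cycling threshold (-0.0063), and without vehicle 1 or cisplatin 3, 4 or 6 (-0.058 to -0.014, in a range up to 0.065 over all mice left out in turn), and Tfap2b turned positive with no gene filter (0.031). None of these reversed values was called. The causes were not tested. Every barcode, removed doublets and other marker thresholds left each member's call in place, except that Gata2 was called among cells with no UMI of other cell types' markers (4.33, edgeR adjusted p = 0.0463). At most 4 UMIs set the level of Hand1 and Gata2 in adrenergic-marker cells of vehicle 1, 3, 4 and 5, and of Gata3 in those of vehicle 1 and 3. With 62583336 to 203731701 UMIs in these cells per mouse, such levels are near absence. Their exact size, and folds over them, remain uncertain.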
